A study of Mus musculus with 7 samples.

Results

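Enzymes that build heme were followed between erythroblasts and erythroid progenitors of the mouse fetal liver. The set was named by function, in the pathway order Alad, Uros, Urod, Cpox, Ppox and Fech. It was named with earlier results of these data known, and other enzymes of the pathway are not reported here. Of these 6 genes 5 had coding exons in the deposited expression table, out of 5194 genes in all, and Uros had none listed, so its RNA was not analysed here. Livers at embryonic stage E13.5 were used for RNA sequencing and for ChIP-seq, the sequencing of DNA that precipitates with a chromatin protein, here EKLF, a transcription factor of red cells encoded by Klf1. All mice, in both groups and in the input controls, carried Klf1 with a hemagglutinin tag, against which the precipitating antibody was directed. Erythroblasts were sorted as Ter119+CD71+ and progenitors as a mixture of Ter119-CD71- and Ter119-CD71+ cells, Ter119 being a red cell lineage antigen and CD71 the transferrin receptor. The samples were primary cells of at least 3 sorts per population per the labels, and gave 2 ChIP libraries, 2 inputs and 3 RNA libraries, of which 2 were from erythroblasts.

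Heme is made from glycine and succinyl-CoA by a chain of enzymes that starts in the mitochondrion, passes through the cytosol and ends in the mitochondrion, where iron is inserted into the porphyrin ring. Red cell precursors make far more heme than other cells because each hemoglobin chain holds one. EKLF is a zinc finger activator that binds CACCC-type motifs and is required for adult beta-globin expression.

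The files hold 1 expression column and 1 pooled peak list per stage, so no difference between erythroblasts and progenitors has a replicate check, and no test was possible. Expression values are the authors' coverage signal, summed here over the listed coding exons of 1 transcript per gene. Exon length is not divided out, so levels are compared between stages for the same gene and never between genes. A gene is said to have risen or fallen where log2((erythroblasts + 1) / (progenitors + 1)) was at least 1 in size, that is 2-fold. The SD over exons that follows a difference describes spread inside a gene, because exons share their libraries and are not replicates. Every listed exon had at least 0.8 in both columns, which stood for 1721 coverage steps in erythroblasts and 1468 in progenitors. If 1 step is 1 base of a 51 bp read, the sums below correspond to between 5710 and 31836 reads in erythroblasts and between 795 and 10103 in progenitors.

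The sorted stages were checked on marker genes. Tfrc, which encodes CD71, had 148 in erythroblasts and 21.3 in progenitors, with all 9 listed exons higher, and Klf1 had 145 in erythroblasts and 73.9 in progenitors. The 15 named erythroid marker genes gave 9 listed items, as genes with the same exon positions were joined into 1 item. Of these items 4 rose and none fell, beside 15.3% and 13.2% over all genes. None of 9 hepatocyte, 8 macrophage, 6 granulocyte and mast cell or 7 stem and early progenitor markers was listed, and of 5 megakaryocyte markers only Gp1ba was, with 31.6 in erythroblasts and 9.35 in progenitors. The table drops exons low in either column, so an unlisted marker is no measure of absence, and the part of other cell types in the results was not tested. In these bulk samples fewer cells of a type and less RNA per cell cannot be told apart.

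Heme synthesis enzymes were higher in erythroblasts. Of the 5 listed members 4 rose, namely Alad, Ppox, Urod and Cpox, and none fell, while Fech was higher by less than 2-fold. Over all 5194 genes 15.3% rose and 13.2% fell. The median log2 difference of the members was 1.65, against 0.03 over all genes. Of their 46 listed exons 44 were higher in erythroblasts and 37 at least 2-fold higher, whereas 53.4% of all exons were higher and 21.7% at least 2-fold higher. The size of the difference ran from 12.7-fold for Alad through 6.12-fold for Ppox, 3.18-fold for Urod and 2.69-fold for Cpox to 1.65-fold for Fech, and so did not follow the order of the pathway. Neighbours in the order of size overlapped in their exon ratios, as Alad, from 8.63-fold to 30.1-fold, did with Ppox, from 3.26-fold to 11.0-fold. Alad did not overlap with Urod, Cpox or Fech, whose largest exon ratio was 5.61-fold.

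**Figure D1:**
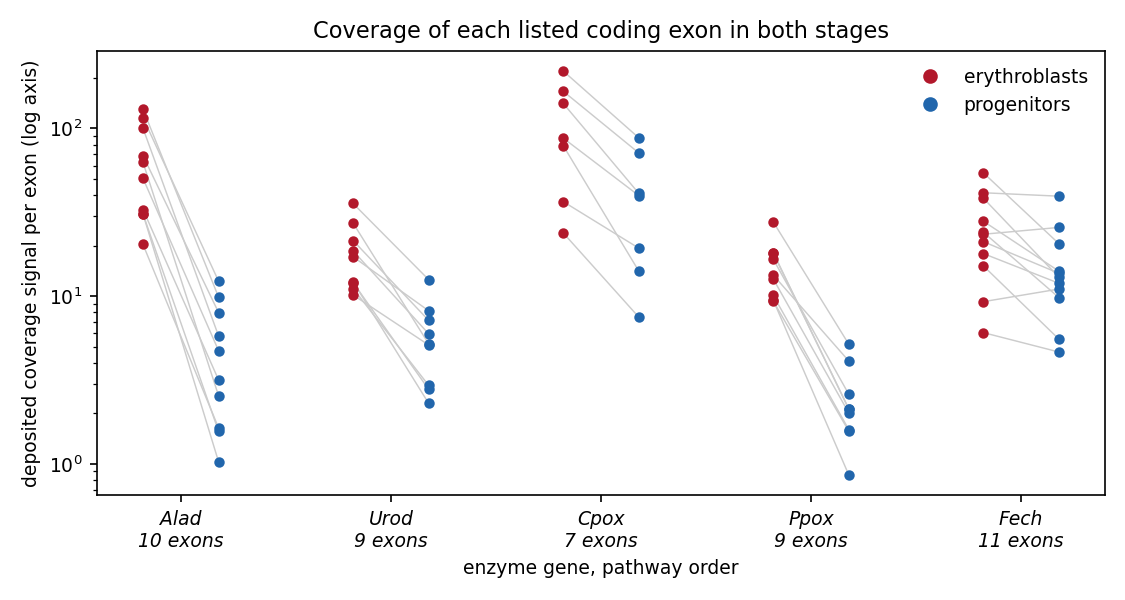
Coverage signal (log axis) of each listed coding exon of the 5 listed enzymes, in pathway order. Red points are erythroblasts, blue points progenitors, and a grey line joins the values of 1 exon. All 10 Alad exons in erythroblasts (20.3 and above) lie over every Alad exon in progenitors (12.3 and below), whereas the Fech exons of the stages overlap.

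**Figure D2:**
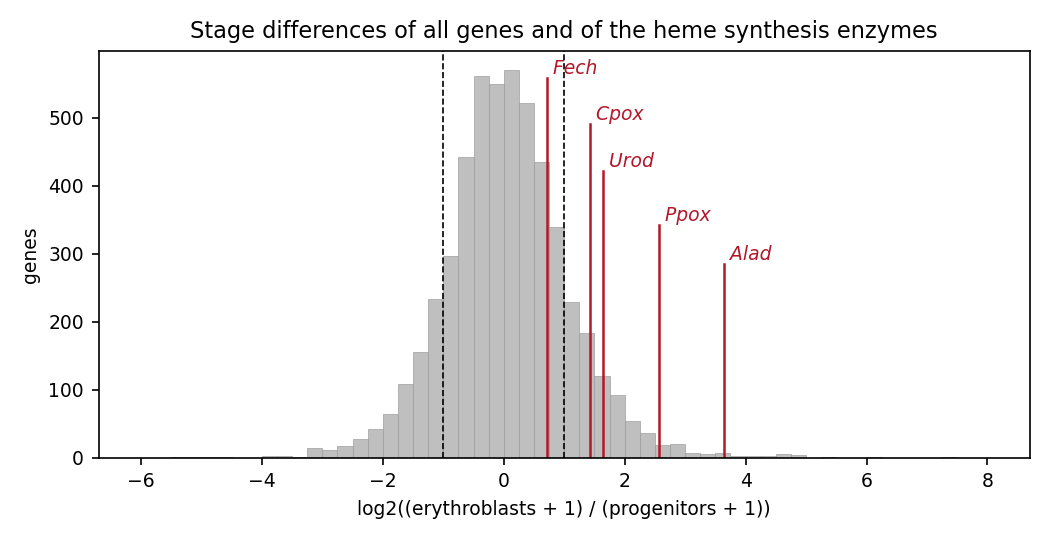
Number of genes by log2 difference between erythroblasts and progenitors, for all 5194 genes (grey bars of width 0.25). Red lines mark the 5 enzymes and dashed lines the 2-fold rule. Fech lies inside the rule at 0.72, and Alad at 3.64 is farthest out.

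Alad encodes the cytosolic enzyme that joins a pair of aminolevulinic acid molecules to porphobilinogen. Its exon sum was 642 in erythroblasts and 50.5 in progenitors, which gave a log2 difference of 3.64 (SD over 10 exons 0.61), higher than 99.6% of genes. Each exon was higher, by between 8.63-fold and 30.1-fold. The exon with the largest ratio starts at 62174566 on chromosome 4 (build mm9, as in all exon and peak positions) and had 30.9 in erythroblasts and 1.03 in progenitors. That exon also had the lowest progenitor value of the gene. The exon that starts at 62171728, with the smallest ratio, had 68.7 in erythroblasts and 7.97 in progenitors. No overlap was seen between the exon values of the stages, since the lowest exon in erythroblasts had 20.3 and the highest in progenitors 12.3. Exon names count up to index 10 from 0, and the 1 index not listed is the last coding exon, number 0 on this reverse-strand gene. An exon start is here the position in the exon name. Alad, Urod, Ppox and Fech are on the reverse strand, where the exon edge that this position marks was not given. Peak distances at these genes may therefore be off by an exon length.

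EKLF peaks near Alad differed between the lists. In erythroblasts the only peak within 50 kb, from 62185259 to 62186899, had an enrichment of 6.49, at percentile 10.6 of that list, and lay 10.2 kb upstream of the most 5' listed Alad exon. It covered a listed exon of Pole3, a DNA polymerase epsilon subunit gene that rose as well, with 48.2 in erythroblasts and 14.7 in progenitors. In progenitors the only peak, from 62180039 to 62181503, had an enrichment of 11.5, at percentile 90.1 of that list and rank 2099 of 7358. It lay 4.93 kb upstream of the same Alad exon and 3475 bases from Pole3. No erythroblast peak overlapped it, the nearest being 3756 bases away, as was the case for 19.1% of all progenitor peaks. Among the 5 listed enzymes Alad had both the largest difference in RNA coverage and the most distant nearest erythroblast peak, as measured from listed coding exons. Transcription starts were not placed on mm9, so the distance of either peak from an Alad start was not measured. Enrichments, and the -log10 p by which peaks were ranked, are the authors' values and are read inside 1 list only.

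Uros encodes the enzyme that closes the linear tetrapyrrole into uroporphyrinogen III. With no listed exon it has neither a coverage value nor a position from which to measure peaks here.

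Urod encodes the decarboxylase that trims the side chains of uroporphyrinogen in the cytosol. Its exon sum was 166 in erythroblasts and 52.1 in progenitors, which gave a log2 difference of 1.65 (SD over 9 exons 0.52). All 9 exons were higher and 8 at least 2-fold. The smallest ratio, 1.99-fold, belonged to the exon that starts at 116665853 on chromosome 4, with 10.2 in erythroblasts and 5.11 in progenitors. The largest, 5.31-fold, belonged to the exon that starts at 116663837, with 12.2 in erythroblasts and 2.29 in progenitors. Values of single exons overlapped between the stages, since the lowest exon in erythroblasts had 10.2 and the highest in progenitors 12.5.

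Peaks of both lists lay at the 5' side of Urod, and no other listed gene was nearer to them. In erythroblasts a peak from 116665382 to 116667283, with an enrichment of 9.87, covered the starts of the 4 most 5' listed exons. A second one, from 116667695 to 116668850 with 6.62, lay 1.51 kb upstream of the most 5' exon. In progenitors a single peak from 116666622 to 116668739 overlapped both, by 662 and 1045 bases, and lay 432 bases upstream. Its enrichment was 4.17 and its rank 7348 of 7358, so it was among the last peaks to be listed. The second erythroblast peak was also low in its list, at rank 17164 of 19353.

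Cpox encodes coproporphyrinogen oxidase of the mitochondrial intermembrane space. It had 755 in erythroblasts and 281 in progenitors, which gave a log2 difference of 1.42 (SD over 7 exons 0.52). All 7 exons were higher and 6 at least 2-fold. The exon that starts at 58678058 on chromosome 16 stood apart with 79.0 in erythroblasts and 14.1 in progenitors, a ratio of 5.61, and the others lay between 1.90-fold and 3.44-fold. The exon with the most coverage in both stages, which starts at 58675355, had 220 in erythroblasts and 87.8 in progenitors.

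Among the enzymes Cpox had the best-ranked erythroblast peak over one of its own listed exons. An erythroblast peak from 58669696 to 58671716 covered the start of the first listed coding exon (58670541) with an enrichment of 18.9, at percentile 94.4 of the list and rank 2634. No progenitor peak overlapped it, and the nearest lay 14.1 kb away. Of all erythroblast peaks 69.1% were not overlapped by a progenitor peak, so this is the usual state in that list. Both lists had a peak farther upstream of Cpox. In erythroblasts it ran from 58653444 to 58655568, 14973 bases away, with an enrichment of 12.2, and in progenitors from 58653224 to 58655552, 14989 bases away, with 6.48. Another erythroblast peak, from 58727698 to 58729096, lay 48.9 kb downstream and 473 bases from a listed exon of Cldnd1, a membrane protein gene.

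A peak lay within 1 kb of the most 5' listed exon at Urod, Cpox and Fech, and promoter sequences are shown for Urod and Cpox, the 2 of them matched in the promoter table. The 250 bases before the annotated start are printed 5' to 3' on the gene's own strand, from RefSeq on GRCm38.p6, a different build from that of the peaks, so the peaks were not placed on these letters. Urod is at chr4:116994414-116994663 on the reverse strand and Cpox at chr16:58669958-58670207 on the forward strand. Capitals mark CACCC, which reads GGGTG where the match is on the other strand.
Urod: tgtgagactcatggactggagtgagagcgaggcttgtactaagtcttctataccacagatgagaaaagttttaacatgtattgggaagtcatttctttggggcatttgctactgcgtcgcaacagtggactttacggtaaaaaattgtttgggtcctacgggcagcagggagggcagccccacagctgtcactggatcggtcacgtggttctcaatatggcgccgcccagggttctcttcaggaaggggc
Cpox: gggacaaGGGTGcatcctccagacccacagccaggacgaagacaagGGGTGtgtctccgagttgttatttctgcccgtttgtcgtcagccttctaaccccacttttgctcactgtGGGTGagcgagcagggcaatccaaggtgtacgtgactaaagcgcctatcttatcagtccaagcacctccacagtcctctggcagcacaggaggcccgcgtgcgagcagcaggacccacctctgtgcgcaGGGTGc
The Cpox window held 4 matches to CACCC, all on the other strand, which begin 243, 204, 135 and 6 bases before the start. The Urod window held none.

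The same search was made over 300 bases, 250 before to 50 after the start, for CACCC, for the longer form CCNCNCCC that EKLF is known to bind, and for AGATAA, a form of the motif of the erythroid GATA factors, each on both strands. CCNCNCCC can hold CACCC, and matches that overlap each other were each counted. The 5 members found in the promoter table, Alad, Uros, Urod, Cpox and Ppox, had 7 windows, since Alad and Uros have 2 annotated starts each. Windows of 1 gene can overlap and are not separate promoters. At Alad the matches 58 and 56 bases before the first start have the strand and spacing of those 212 and 210 before the second. The same letters may thus be counted in both Alad windows. CCNCNCCC was found in 6 of the 7 windows, against 49.5% of 32851 promoters of the same length. CACCC was found in 3 of the 7, against 57.5%, and AGATAA in 1, that of Cpox, against 11.2%. Within the 250 bases before the start CCNCNCCC was left in 3 windows, from Alad and Uros, against 45.9%, and AGATAA in none, against 9.99%. CACCC was left in 2 windows, one of Alad and that of Cpox, against 52.0%. Other forms of the GATA motif were not searched for, so the AGATAA counts do not show that a window lacks them. These counts describe letters and not occupied sites.

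Ppox encodes the mitochondrial oxidase that turns protoporphyrinogen into protoporphyrin. It had 135 in erythroblasts and 22.1 in progenitors, which gave a log2 difference of 2.56 (SD over 9 exons 0.50), at percentile 98.7 of all genes. All 9 exons were at least 2-fold higher, from 3.26-fold to 11.0-fold. The exon that starts at 173208013 on chromosome 1, with the largest ratio, had 9.46 in erythroblasts and 0.86 in progenitors, close to the lowest value the table lists. The highest exon in both stages, which starts at 173207188, had 27.7 in erythroblasts and 5.16 in progenitors. No exon in progenitors reached the lowest erythroblast exon, which had 9.33. Of the indices 0 to 10 in the exon names 2 were not listed.

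**Figure D3:**
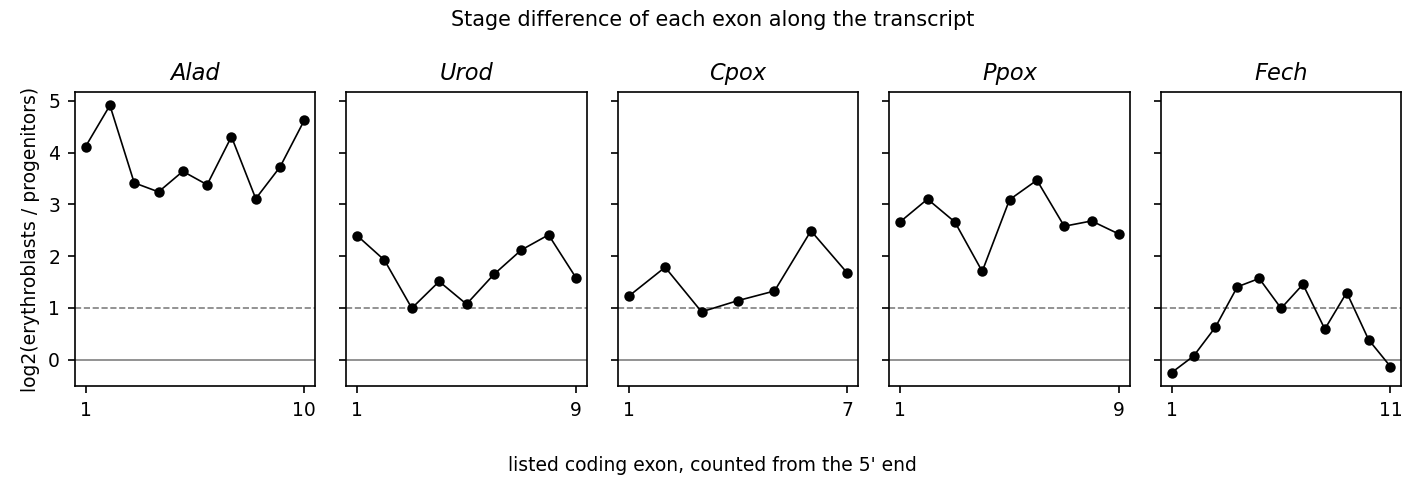
log2 ratio of erythroblasts to progenitors for each listed coding exon of the 5 enzymes, with no pseudocount, numbered from the 5' end. The solid line is no difference and the dashed line 2-fold. Every Alad and Ppox exon lies over the dashed line, and the first and last exons of Fech lie just under the solid line.

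Ppox had 5 erythroblast peaks within 50 kb, a number that 8.16% of genes reached, and each lay nearer to another listed gene. The nearest on either side, with enrichments of 7.93 and 8.94, were 5.76 and 5.88 kb away. The first of them, from 173216280 to 173218723, covered a listed exon of Usp21, a deubiquitinase gene, and the second, from 173200086 to 173201306, lay 568 bases from B4galt3, a galactosyltransferase gene. A peak from 173224380 to 173225638 covered an exon of Ufc1, a ubiquitin-fold conjugating enzyme gene. The best-ranked, from 173258406 to 173260450 with an enrichment of 23.2 and rank 627, lay 47.9 kb from Ppox and 8504 bases from Dedd, a death effector domain gene. Tomm40l, Nit1 and Pfdn2 were also nearer than Ppox to 1 or more of the 5. Progenitors had no peak within 50 kb, the nearest lying 54.3 kb away.

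B4galt3, Ufc1 and Usp21, which lay under or within 1 kb of 3 of these peaks, did not rise. B4galt3 had 7.68 in erythroblasts and 9.59 in progenitors. Ufc1 had 5.17 in erythroblasts and 3.03 in progenitors. Usp21 fell, with 1.87 in erythroblasts and 5.85 in progenitors on 1 exon. The nearest listed B4galt3 exon starts 951 bases from one of Ppox. Counting by strand was not given in the sources used here. Reads of transcripts that overlap cannot be told apart without it.

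Fech encodes ferrochelatase, the iron-sulfur enzyme of the inner mitochondrial membrane that inserts iron to complete heme. Its exon sum was 279 in erythroblasts and 169 in progenitors, which gave a log2 difference of 0.72 (SD over 11 exons 0.66), under the 2-fold rule and at percentile 77.1 of all genes. Of the 11 exons 9 were higher and 4 at least 2-fold. The outer exons differed least. Counted from the 5' end, the first had 9.26 in erythroblasts and 11.0 in progenitors, the second had 41.3 in erythroblasts and 39.4 in progenitors, and the last had 23.4 in erythroblasts and 25.7 in progenitors. The fourth to the seventh lay between 1.99-fold and 2.96-fold higher, with the fifth, which starts at 64630336 on chromosome 18, at 38.4 in erythroblasts and 13.0 in progenitors. Spread of this size was common. Among 1677 genes with at least 5 listed exons the median SD over exons was 0.69, and Fech lay at percentile 45.5. The other enzymes lay between percentiles 19.3 and 37.6.

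Both lists had overlapping peaks at Fech. An erythroblast peak from 64648253 to 64649612, with an enrichment of 15.7 (percentile 89.0 of its list, rank 8253 of 19353), covered the start of the most 5' listed exon at 64648555. The progenitor peak there ran from 64648151 to 64649447, had 8.65 (percentile 72.1, rank 2981 of 7358) and shared 1195 bases with it. A second shared pair lay 27.0 kb upstream in erythroblasts, from 64675559 to 64676901 with an enrichment of 11.4, and 26.9 kb upstream in progenitors, from 64675446 to 64677270 with 5.84. Both covered a listed exon of Nars, an asparaginyl-tRNA synthetase gene, which had 89.5 in erythroblasts and 120 in progenitors, under the rule.

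Counted over the enzymes, all 5 had an erythroblast peak within 50 kb of a listed exon and 4 a progenitor peak. Over all genes these shares were 88% and 70.1%, so the counts say nothing particular about the enzymes. Within 5 kb 3 of 5 had an erythroblast peak (Urod, Cpox and Fech) and 3 a progenitor peak (Alad, Urod and Fech), where 45.9% and 30.7% of all genes did. Of the 13 erythroblast peaks within 50 kb 5 overlapped a progenitor peak, where 30.9% of all erythroblast peaks did. Of the 5 progenitor peaks 4 overlapped an erythroblast peak, where 80.9% of all progenitor peaks did. With so few peaks these counts say nothing particular about the enzymes. No other listed gene was nearer to 5 of the 13 and to 3 of the 5, for which no share over all peaks was computed. Alad and Ppox, with the largest RNA differences, had no erythroblast peak within 5 kb, and Fech, with the smallest, had peaks of both lists over its most 5' listed exon. With 5 genes this is a description only. Peak counts within 5 kb miss starts that lie farther upstream of the listed coding exons.

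**Figure D4:**
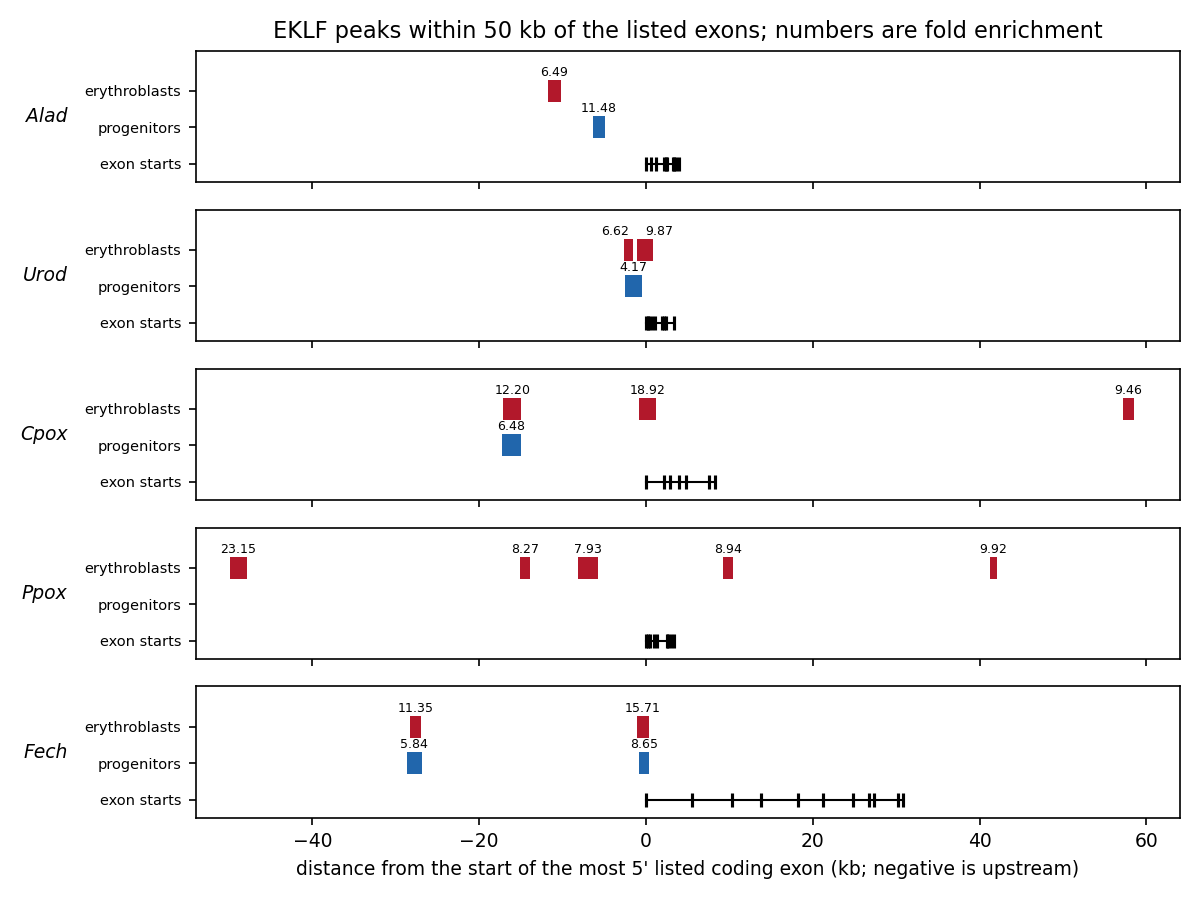
EKLF peaks within 50 kb of the listed exons of the 5 enzymes, by distance in kb from the start of the most 5' listed coding exon, with the direction of transcription to the right. Red bars are erythroblast peaks, blue bars progenitor peaks, numbers the authors' fold enrichment, and black ticks the listed exon starts. Urod and Fech have overlapping peaks of both lists at their 5' side, Cpox has an erythroblast peak alone there (18.9), and the 5 Ppox peaks all lie more than 5 kb away.

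Of 18 listed carriers and regulators of heme synthesis 6 rose, 2 fell and 10 did neither, with a median log2 difference of 0.28. Over all genes 15.3% rose and 13.2% fell, so the falls were near the share over all genes. Abcb10, an inner membrane transporter that heme synthesis needs in mouse red cells, had 463 in erythroblasts and 14.1 in progenitors. Slc25a37 (mitoferrin, which carries iron into the mitochondrion) had 196 in erythroblasts and 6.42 in progenitors. The glycine carrier gene Slc25a38 had 58.3 in erythroblasts and 4.12 in progenitors. Tmem14c, an inner membrane protein needed for the last mitochondrial steps in mouse red cells, had 87.3 in erythroblasts and 6.63 in progenitors. These 4 differences, like that of Alad, were over 10-fold. Abcb6, a porphyrin transporter, had 90.8 in erythroblasts and 16.3 in progenitors, and Slc25a39, a mitochondrial glutathione carrier, had 123 in erythroblasts and 47.7 in progenitors. The falls were Sfxn1, a mitochondrial serine carrier, with 20.2 in erythroblasts and 52.5 in progenitors, and Tspo, an outer membrane protein that binds porphyrins, with 3.72 in erythroblasts and 11.98 in progenitors.

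Of the 10 under the rule those with the largest exon sums are given, an order that also depends on how many exons are listed and how long they are. Shmt2, the mitochondrial glycine-forming enzyme, had 398 in erythroblasts and 554 in progenitors. Ogdh and Dlst encode subunits of the oxoglutarate dehydrogenase complex, which makes succinyl-CoA. Ogdh had 140 in erythroblasts and 110 in progenitors, and Dlst had 64.7 in erythroblasts and 91.3 in progenitors, with 6 of its 10 exons higher in erythroblasts. Clpp, the protease subunit of a mitochondrial complex that acts on the first enzyme of the pathway, had 23.4 in erythroblasts and 37.6 in progenitors.

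Of 10 listed genes of heme breakdown, export and sensing 4 rose, 2 fell and 4 did neither, with a median of 0.47, beside the 15.3% and 13.2% over all genes. Hebp1, a heme-binding protein gene, rose most, with 145 in erythroblasts and 3.99 in progenitors. Bach1, a repressor that heme releases from DNA, had 48.7 in erythroblasts and 1.99 in progenitors on 2 exons. Blvrb, a biliverdin and flavin reductase, had 608 in erythroblasts and 93.5 in progenitors, and Eif2ak1, the kinase that slows globin translation when heme is short, had 39.6 in erythroblasts and 5.61 in progenitors. The falls were Slc48a1, a heme transporter of endosomes and lysosomes, with 18.1 in erythroblasts and 87.9 in progenitors, and Pgrmc1, a heme-binding membrane protein reported to bind ferrochelatase, with 3.75 in erythroblasts and 29.5 in progenitors. The heme oxygenase genes were under the rule. Hmox1 had 5.75 in erythroblasts and 4.06 in progenitors, and Hmox2 had 9.95 in erythroblasts and 11.9 in progenitors. The exporter gene Abcg2 had 4.17 in erythroblasts and 8.70 in progenitors, under the rule by its sum and past it by its exon median of -1.08.

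Iron-sulfur assembly, on which ferrochelatase depends for its cluster, was nearest to the median of all genes. Of 13 listed genes 1 rose, 1 fell and 11 did neither, with a median of 0.07, again beside 15.3% and 13.2% over all genes. The scaffold gene Iscu rose, with 17.9 in erythroblasts and 6.76 in progenitors, and the chaperone gene Hspa9 fell, with 62.6 in erythroblasts and 160 in progenitors, although its exon median of -0.90 was under the rule. Glrx5, a glutaredoxin that passes clusters on, had 77.4 in erythroblasts and 64.5 in progenitors, and Ciapin1, of the cytosolic branch, had 23.6 in erythroblasts and 46.7 in progenitors. Erythroblast peaks within 5 kb were found at 12 of these 13 genes, at 14 of the 18 carriers and regulators and at 5 of the 10 breakdown, export and sensing genes, beside 45.9% of all genes. Progenitor peaks within 5 kb were found at 10, 5 and 4 genes of these lists in the same order, beside 30.7% of all genes.

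**Figure D5:**
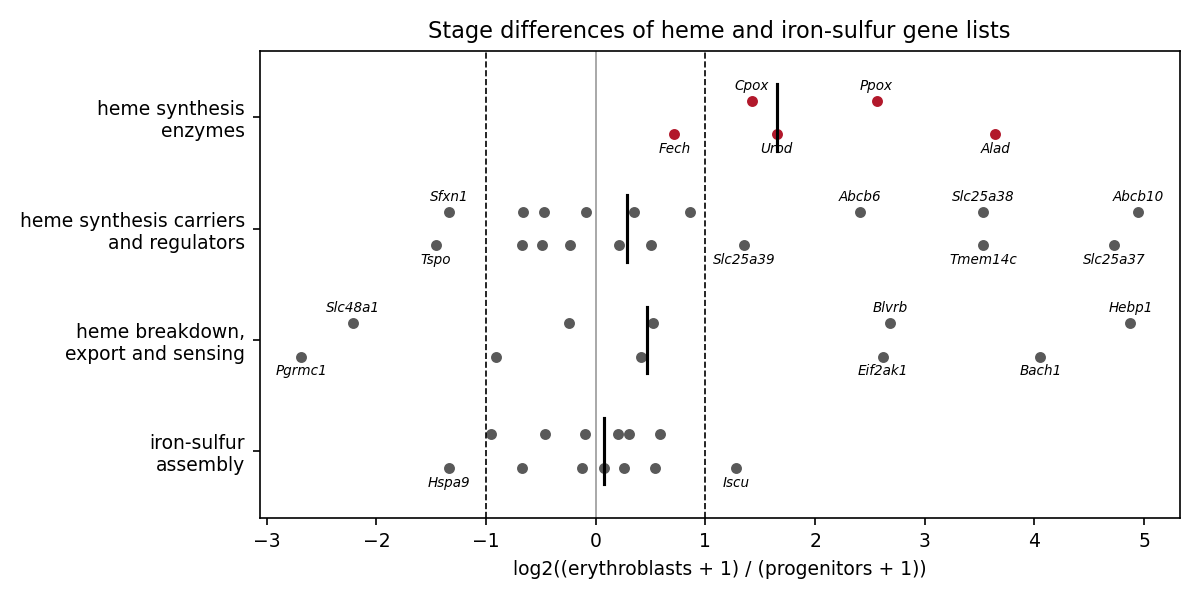
log2 difference between erythroblasts and progenitors for each listed gene of 4 lists, with dashed lines at the 2-fold rule and a black bar at each list's median. Genes are named where they are heme synthesis enzymes (red) or past the rule. The enzymes lie between 0.72 and 3.64, and the other lists have members on both sides of 0.

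Genes most like each enzyme were sought among genes with at least 5 listed exons and a mean log2 exon sum within 1 of it, a match on the size of the deposited sums and not on expression per length, by the smallest gap between log2 differences over the 2 columns. For Alad the nearest, by their log2 differences, were Ank1 (3.15) and Add2 (2.97), at gaps of 0.49 and 0.67, whereas Urod, Cpox and Fech each had a gene at a gap of at most 0.03. For Ppox Abcb6 (2.41) lay at a gap of 0.15. The nearest were for Urod Slc2a1 (1.65) and Taok3 (1.65), for Cpox Tpi1 (1.39) and Eif3a (1.49), and for Fech Prdx3 (0.72) and Leng8 (0.73). With 2 columns likeness rests on 1 difference per gene.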

How the data were processed

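Samples were grouped by title. Build mm9 is taken from the submitters' processing notes, with aligner, read counter and peak caller not given in the sources used here. Although called RPKM, the deposited expression values were read as the authors' coverage signal per coding exon, because 100% of them lay within 0.01 of whole steps, of which 2151 make 1 unit in erythroblasts and 1835 in progenitors. Whether the erythroblast column pools both libraries is not given. Column 7 of the deposited peak lists was read as fold enrichment (lowest 2.14) and column 8 as -log10 p (lowest 5), and column 9 was not used. The lists are of pooled ChIP per the file names, with input as background per the labels.

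Transcript accessions were matched to symbols in the RefSeq table of GRCm38.p6 (6772 of 6853). Per gene the transcript with the most listed exons was summed, 5214 items, of which 5194 had at least 1 in at least 1 column. Distances run from listed exon starts, the positions in the exon names on both strands, to the nearest peak edge, and shared peaks overlap by at least 1 bp. The rule for named genes took every enzyme, list genes past 2-fold and those with the largest sums among the others, the 2 genes most like each enzyme, and genes nearer to a peak. Other enzymes of the pathway and a few genes picked by this rule are not reported here. Members, lists and tests were chosen with earlier results of these data known. Steps were tested on simulated data. Alternatives were other pseudocounts, exon summaries, filters, scalings, windows and peak selections. Python 3.11.15, pandas 2.3.3 and numpy 2.4.6 were used.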

Additional observations from a re-analysis of the deposited data

How the results depend on the processing

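All 5 enzymes kept their direction and their side of the 2-fold rule under pseudocounts of 0.1 and 5, the median of exon log2 ratios, all distinct exons, exons with at least 5 in the higher stage, median-ratio scaling and totals without globins. Those scalings shifted log2 differences by -0.03 and -0.06. Among the other lists, iron-sulfur genes that rose numbered 0 with a pseudocount of 5, those that fell 2 with the exon filter and 2 without globins, and carriers and regulators that fell 1 with a pseudocount of 5. With a pseudocount of 0.1, and with the exon median, 3 breakdown, export and sensing genes fell, against 2, and 7 carriers and regulators rose, against 6. By the exon median the iron-sulfur gene that fell was Hscb (-1.08) and not Hspa9 (-0.90).

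Peak counts depended on the window and on which peaks were kept. With 5 kb, 3 enzymes had an erythroblast peak, with 4 peaks of which 3 were shared, and progenitors had 3 peaks. With 10 kb these were 6 erythroblast peaks, 3 shared, and 3 progenitor peaks. Keeping the higher-ranked 50% of each list left erythroblast peaks at 3 enzymes (3 peaks, 1 shared) and progenitor peaks at 2 (2 peaks). An enrichment of at least 10 left 3 (5 peaks, 0 shared) and 1 (1 peak). The full lists hold 19353 erythroblast and 7358 progenitor peaks. With lists of equal length erythroblast peaks were left at 2 enzymes (2 peaks, 0 shared) and progenitor peaks at 4 (5 peaks). Each of these settings admits fewer peaks or a narrower window. A 100 kb window, peak midpoints and a shared overlap of at least 50% of the shorter peak kept the counts within 1.5 times. In the 250 bases before the start CCNCNCCC was left at 2 members and AGATAA at 0, since fewer bases were searched.

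Leaving out a replicate was not possible, as each stage has 1 column, and no counting interval was given. No paired analysis was possible because the columns carry no replicate numbers.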
